A study of Sus scrofa with 48 samples.

Results

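The genes described here carry a CD (cluster of differentiation) name, the numbering given to cell surface molecules that antibodies were used to recognise, mostly on leucocytes. A probe was taken when the gene name on the microarray, or a symbol in brackets in its description, was CD followed by 1 to 3 digits and at most 1 letter, and when 12 or more of the 48 arrays had its spot well above background. The rule found 158 probes for 65 genes, of which 122 probes for 51 genes passed the filter, out of the 42125 probes that passed it in all. The gene name itself gave 110 of the 122 probes and the description gave the other 12, which were for the Fc receptors FCGR1A (CD64), FCGR2B (CD32) and FCGR3B (CD16b), the ectonucleotidase NT5E (CD73) and IGBP1. IGBP1 binds a CD antigen and is not one itself, and CD5L is a secreted protein that resembles CD5. The 122 probes had 117 distinct sequences, because in 5 pairs both probes were the same 60 bases.

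Gene expression was measured in longissimus muscle, a muscle of the back, of 48 growing purebred Large White barrows from a pair of lines selected in opposite directions for residual feed intake (RFI), the feed an animal eats beyond what its growth and maintenance predict. The groups were low RFI pigs (RFIneg) on the HF diet, high RFI pigs (RFIpl) on the HF diet, low RFI pigs fed the LF diet and high RFI pigs fed the LF diet, with 12 pigs and 12 arrays in each. The HF diet was rich in fat and fiber. The LF diet is labelled low fat, and the paper describes it as standard in composition. All pigs ate freely. Low RFI pigs are the efficient ones. Selection and drift between the lines cannot be told apart.

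CD antigens are a naming system and not a family, and the proteins behind the names do different work. CD40 is a receptor of the TNF receptor superfamily on B cells, macrophages, dendritic cells and endothelium, and its ligand on activated T cells drives antigen presenting cells to mature through TRAF adaptors and NF-kB. Resident macrophages lie between muscle fibres, where they clear debris and take part in repair, and they carry many of the molecules described here, such as CD163, a scavenger receptor for haemoglobin, and CD14, a co-receptor for bacterial lipopolysaccharide. The RNA came from whole muscle, in which fewer cells of a type and less RNA per cell cannot be told apart.

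CD40 was read by 4 probes, which are shown first because the most surely called result rests on them. Probe A_72_P544217 lies at base 615 of the transcript, in the coding part, and is printed whole. The other 3 probes lie toward the end of the transcript, and 30 bases of each are printed. The capitals mark the 14 bases that probes A_72_P088376 and A_72_P124966 share.
CD40 A_72_P544217: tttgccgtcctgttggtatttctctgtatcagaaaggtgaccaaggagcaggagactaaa
CD40 A_72_P088376, bases 31 to 60: tcgtgacagtgagtgaCTGGAAACTGCTTA
CD40 A_72_P124966, bases 1 to 30: CTGGAAACTGCTTAactgtccatcaacagg
CD40 A_72_P294444, bases 1 to 30: gcttaactgtccatcaacaggggactggct

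Probes A_72_P124966 and A_72_P294444 have 51 bases in common, and therefore read nearly the same stretch, while the probe in the coding part shares no run above 5 bases with the others. All sequences are 5′ to 3′, as the array files give them. CD72 and FCGR2B are shown as well, since in each gene the probes did not move together, and 30 bases of a pair of probes are printed for each.
CD72 A_72_P139481, bases 1 to 30: cacatgagactaacacgtgcaaattattta
CD72 A_72_P509415, bases 1 to 30: tgaagaaacttctagaagagactttggctt
FCGR2B A_72_P735253, bases 1 to 30: cacacagccagtgaaaattacttttaataa
FCGR2B A_72_P730723, bases 1 to 30: aacaacttgctggtgacgatagttgtggct

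Levels are given as the log2 of the processed signal minus the mean of the array over the tested probes, so that 0 is the average tested probe of an array and 1 unit is a 2-fold step. Depending on the array, 59.2% to 74.2% of the probes were well above background. The tissue label was checked against markers of skeletal muscle fibres. All 8 of them were tested, and their summed level lay between 15.26 and 15.86 in every pig. Of the 6 macrophage markers listed, 5 were measured (CSF1R, AIF1, MRC1, C1QA and C1QB), and MARCO was not found on the array. The 6 markers of leucocytes in general were all measured. For T cells, 2 of 4 listed markers were found on the array. LCK was tested and IL7R was not above background on enough arrays. A pair of pigs stood apart in the genes described here, both fed the HF diet. High RFI pig 6 had the highest level of all 48 pigs for 34 of the 122 probes, against 13 probes for the next pig. Low RFI pig 11 had the lowest level for 29 probes, against 14 for the next pig.

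The first question was whether CD antigen genes differed between the lines over both diets. CD40 differed most surely and was higher in high RFI pigs, as were some probes of the Fc receptors FCGR3B and FCGR2B, of CD14 and of other leucocyte genes. With limma, 40 of the 122 probes had an adjusted p under 0.05 for the line, of which 37 were higher and 3 lower in high RFI pigs. In all tested probes 16.4% were called for the line, with 6.57% higher and 9.85% lower, whereas 32.8% of the CD antigen probes were called. The median line difference was 0.17 over the 122 probes and -0.03 over all tested probes, in log2 units, with positive values for a higher level in high RFI pigs. The 40 probes belonged to 21 genes and had 39 distinct sequences, and 3 of them were above background on fewer than 24 arrays.

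The calls depended in part on the pigs that stood apart. Without high RFI pig 6 fed the HF diet, 29 probes were called, all of them among the 40, with 28 higher and 1 lower. The 11 probes that were lost were 2 of CD86 and 1 each of CD163, CD244, CD302, CD48, CD53, CD81, CD82, CD9 and FCGR2B. Without low RFI pig 11 fed the HF diet, 30 were called, with 27 higher and 3 lower. The 10 that were lost were 3 of CD81, 2 of CD86 and 1 each of CD163, CD302, CD48, CD53 and FCGR2B. Without both pigs, 26 were called, all among the 40, and the lost ones also held 1 probe of CD97. None of the 40 changed sign in these fits, and the median line difference of the 122 probes was 0.15 without both pigs. The difference of CD40 was then 0.94 (adjusted p = 1.47e-06 in limma with probe A_72_P124966).

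**Figure D1:**
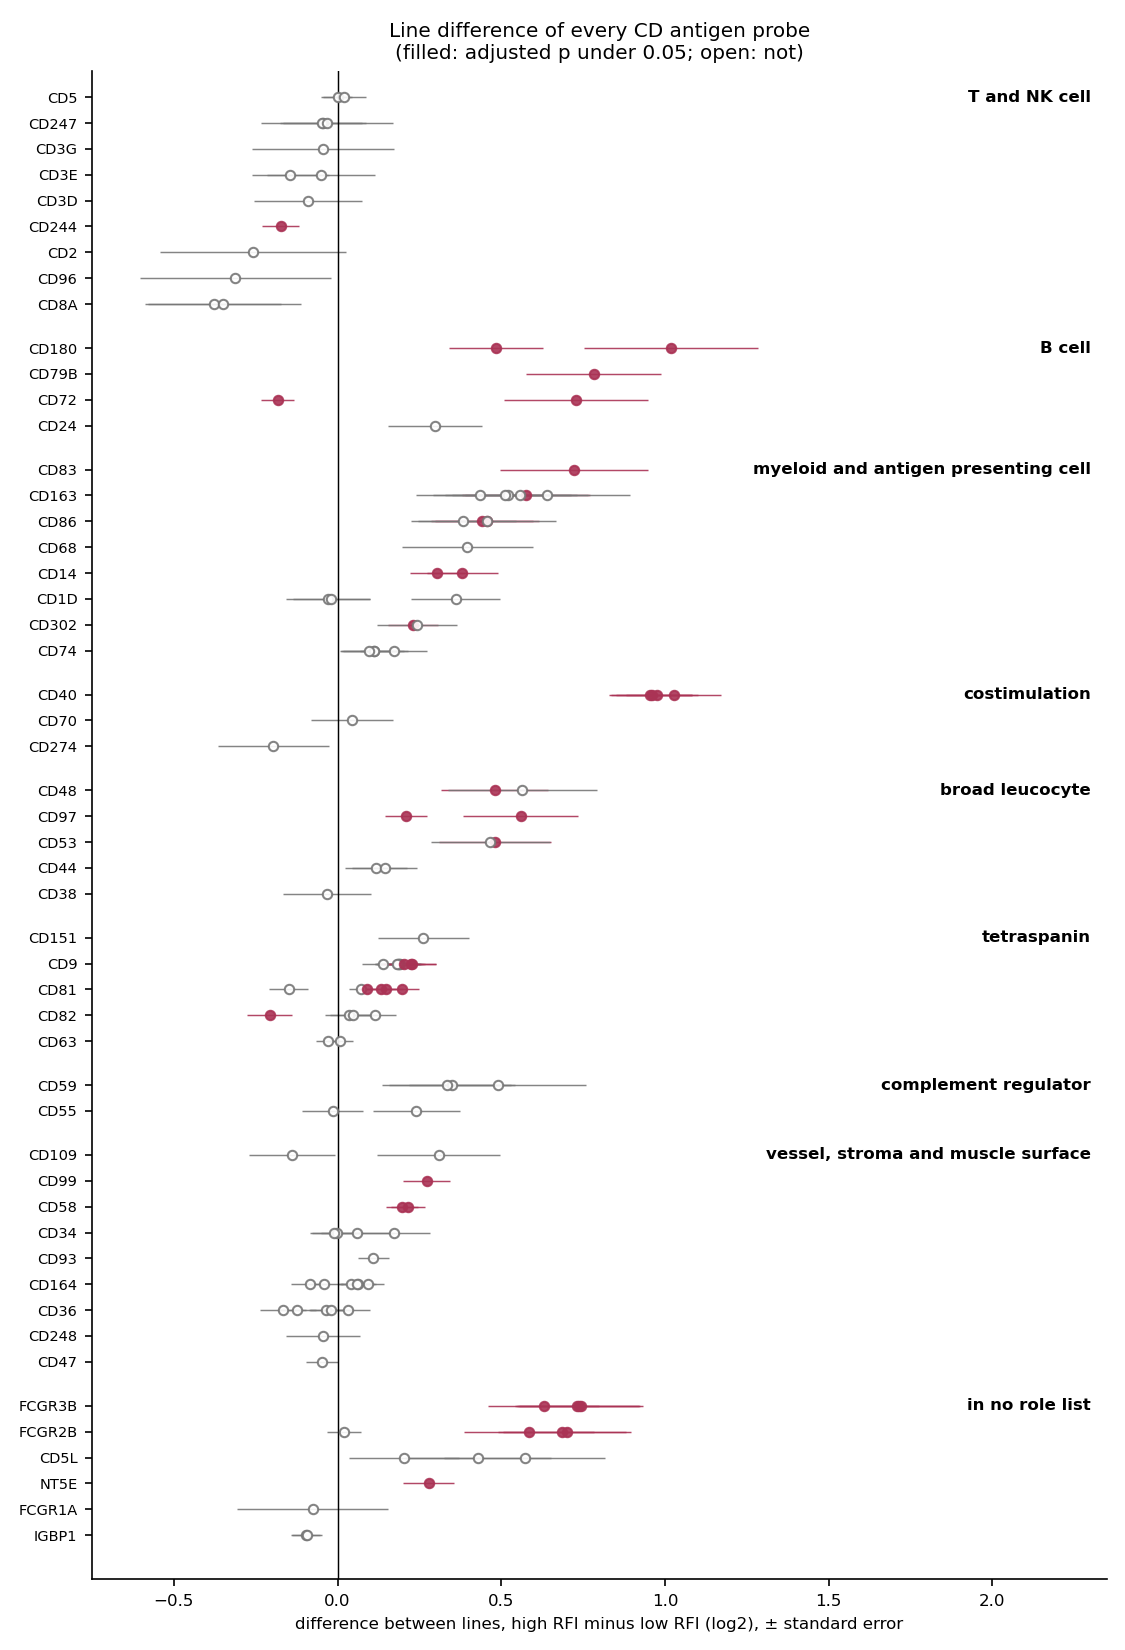
Difference between the lines (log2, high RFI minus low RFI, with the standard error) of each of the 122 CD antigen probes, by gene and by role of the gene. Filled points had an adjusted p under 0.05 with limma, and the 4 probes of CD40 lie together near 1.

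The study had chosen CD40 for its target genes on pigs that include these 48, so its line difference is not independent evidence here. The paper also measured CD40 by qPCR in muscle of its pigs, these included, and found it higher in the high RFI line. With probe A_72_P124966, which stands for the gene, the lowest, median and highest levels were 0.29, 1.14 and 1.56 in low RFI pigs fed the HF diet. They were 1.31, 2.20 and 2.83 in high RFI pigs fed the HF diet. The LF diet gave 0.47, 1.37 and 2.42 in low RFI pigs and 1.87, 2.32 and 2.72 in high RFI pigs. The lines almost separated on the HF diet, since 11 of 12 high RFI pigs lay above every low RFI pig. On the LF diet they overlapped more, since 4 of 12 high RFI pigs lay above every low RFI pig, and 9 of 12 low RFI pigs lay below every high RFI pig.

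The mean level of CD40 was 1.26 ± 0.56 (SD, n = 24) in low RFI pigs and 2.23 ± 0.33 (SD, n = 24) in high RFI pigs. The difference was 0.98 (standard error 0.13), a 1.97-fold higher signal, with an adjusted p of 3.97e-07 in limma. The other probes gave 0.96 (A_72_P294444 and A_72_P088376) and 1.03 (A_72_P544217, in the coding part), so the difference was about as large in the coding part as at the end of the transcript. Of the 122 probes, the 4 of CD40 had the 4 smallest p-values, and among all 42125 tested probes they ranked between 56 and 88. CD40 was also called within each diet, by 1.03 on the HF diet (adjusted p = 0.00043) and 0.92 on the LF diet (adjusted p = 0.00181) with probe A_72_P124966. Each of the 6 slides held 2 pigs of every group, and the CD40 difference within a slide ranged from 0.49 to 1.46.

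**Figure D2:**
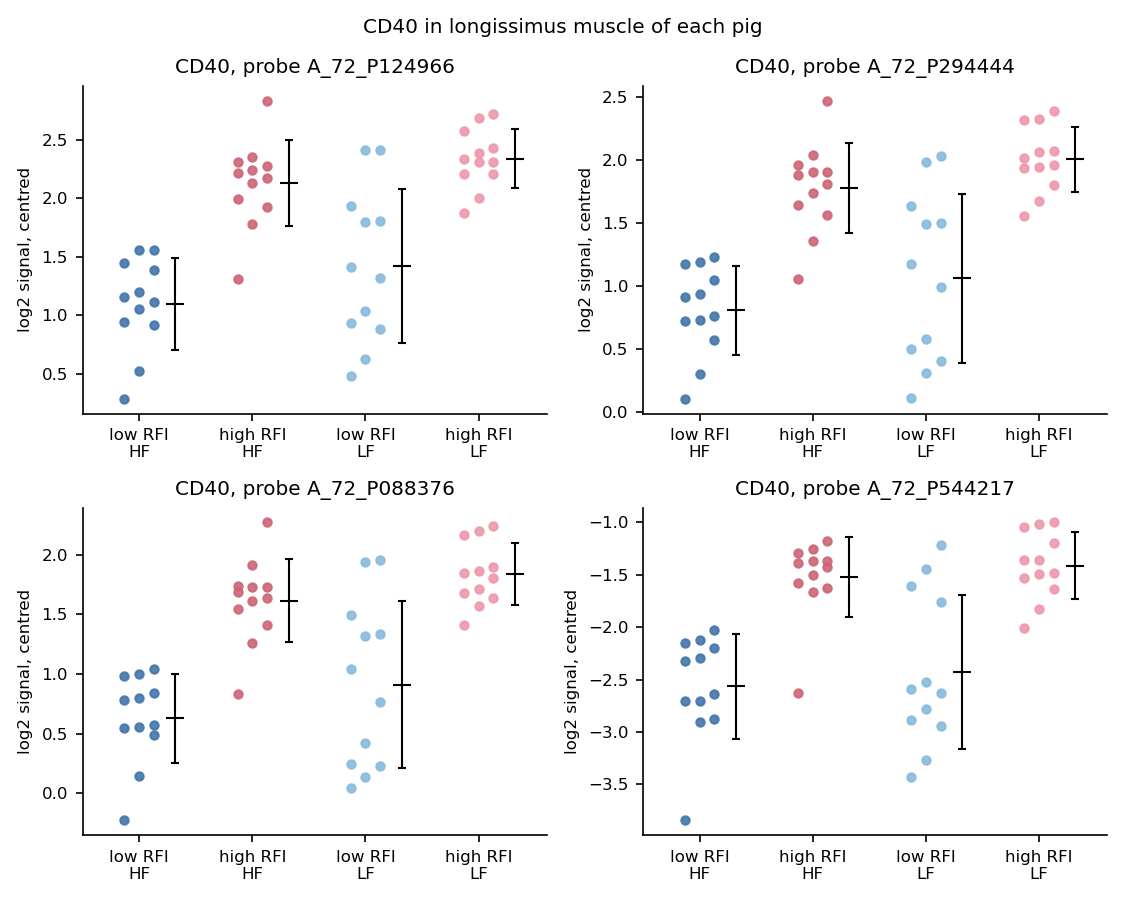
Centred log2 signal of CD40 in each pig for the 4 probes, by line and diet, with the mean and SD of the 12 pigs as a bar. On the HF diet 11 of 12 high RFI pigs lie above all low RFI pigs for every probe, and the low RFI pigs fed the LF diet are the most spread group.

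Low RFI pigs on the LF diet were spread more widely for CD40 than the other groups. With the probe in the coding part, 8 of these 12 pigs lay between -3.43 and -2.53 and the other 4 between -1.76 and -1.22, within the range of the high RFI pigs on that diet. The same 4 pigs were the highest of their group with every CD40 probe. For the other 3 probes no gap parted these 4 pigs from the rest, and the eighth and ninth pigs of the group were at 1.80 and 1.81 with probe A_72_P124966.

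Among the genes that act with CD40 in costimulation, the second signal that T cells receive from antigen presenting cells, CD83 and CD86 were called higher in high RFI pigs. CD86, a ligand of CD28, was measured by 4 probes, with line differences from 0.38 to 0.46, and 2 of them were called. With probe O11942 the lowest, median and highest levels on the HF diet were -1.47, -0.65 and -0.17 in low RFI pigs and -1.15, -0.48 and 1.63 in high RFI pigs. With the LF diet the levels were -1.21, -0.39 and 0.33 in low RFI pigs and -1.02, 0.15 and 0.85 in high RFI pigs. The lines overlapped widely on both diets, and the difference was 0.46 (standard error 0.16, adjusted p = 0.0400 in limma). Without high RFI pig 6 on the HF diet it was 0.37 and no longer called (adjusted p = 0.0604).

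CD83, a surface marker of mature dendritic cells, differed by 0.72 (standard error 0.23, adjusted p = 0.0229). Its median was -0.46 in low RFI pigs with either diet, 0.12 in high RFI pigs fed the HF diet and 0.47 in high RFI pigs fed the LF diet. The levels ran from -1.42 to 2.14 in the high RFI pigs and from -1.17 to 0.99 in the low RFI pigs, so the lines overlapped. The T cell ligand CD274 (PD-L1) and CD70 were not called, with differences of -0.20 and 0.04. CD80, CD276 and CD27 were on the array but did not pass the filter on dim probes. Over the list of costimulation genes, 7 of 11 probes were called higher and none lower, of which 4 were those of CD40. The 7 were 63.6% of the list, against 6.57% of all tested probes called higher.

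Macrophages, neutrophils and NK cells bind antibody through Fc receptors, and FCGR3B and FCGR2B were called higher. FCGR3B was measured by 4 probes, all called higher, with differences from 0.63 to 0.74. With probe A_72_P223802 the lowest, median and highest levels on the HF diet were 0.76, 1.63 and 2.23 in low RFI pigs and 1.45, 1.93 and 4.13 in high RFI pigs. With the LF diet they were 1.06, 2.06 and 2.86 in low RFI pigs and 1.53, 2.73 and 3.58 in high RFI pigs. The highest value belonged to high RFI pig 6 on the HF diet, and the lines overlapped on each diet. The difference of this probe was 0.63 (standard error 0.17, adjusted p = 0.00791 in limma), and it was 0.54 and still called (adjusted p = 0.0104) without that pig. The array files name these probes FCGR3B, whereas RefSeq gives the accession of 3 of them the symbol FCGR3A, and binding of the probes to related Fc receptor genes was not tested.

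FCGR2B, the inhibitory Fc receptor, was called higher by 3 of 4 probes, with differences from 0.58 to 0.70, but a pair of these 3 probes has the same sequence. The fourth, A_72_P730723, differed by 0.02 (adjusted p = 0.827). The high affinity receptor FCGR1A was above background on 16 arrays and was not called (-0.08, adjusted p = 0.857).

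Myeloid genes as a list had 23 probes, of which 7, or 30.4%, were called higher and none lower, with a median line difference of 0.38. Over all tested probes 6.57% were called higher, with a median of -0.03. CD83 and CD86 are in this list and in that of costimulation, so their calls count in both. Among the 7, the calls of CD86, CD163 and CD302 were lost without high RFI pig 6 on the HF diet. CD14 was called by both its probes, with differences of 0.30 (adjusted p = 0.00916) and 0.38 (adjusted p = 0.0121). With probe A_72_P050971 its lowest, median and highest levels on the HF diet were -1.08, -0.79 and -0.67 in low RFI pigs and -1.05, -0.64 and 0.39 in high RFI pigs. The LF diet gave -1.23, -0.69 and -0.36 in low RFI pigs and -0.74, -0.46 and 0.15 in high RFI pigs. Of the 24 high RFI pigs, 20 lay above the mean of the low RFI line, but the lines overlapped. CD163 differed by 0.44 to 0.64 over its 6 probes, and 1 of them was called (O14513, 0.57, adjusted p = 0.0369), which differed by 0.48 without high RFI pig 6 on the HF diet and was no longer called (adjusted p = 0.0582). That pig had a CD163 level of 3.52 with probe A_72_P177981, and the next pig of its group had 2.06. CD74, the invariant chain that guides antigen to MHC class II, was above background on all arrays and was not called by any of its 4 probes (0.10 to 0.17). CD68, a lysosomal protein of macrophages, differed by 0.40 (adjusted p = 0.170) and was above background on 28 arrays. The C-type lectin CD302 was called by 1 of 2 probes (0.23, adjusted p = 0.0312), and none of the 3 probes of the lipid presenting molecule CD1D was called.

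**Figure D3:**
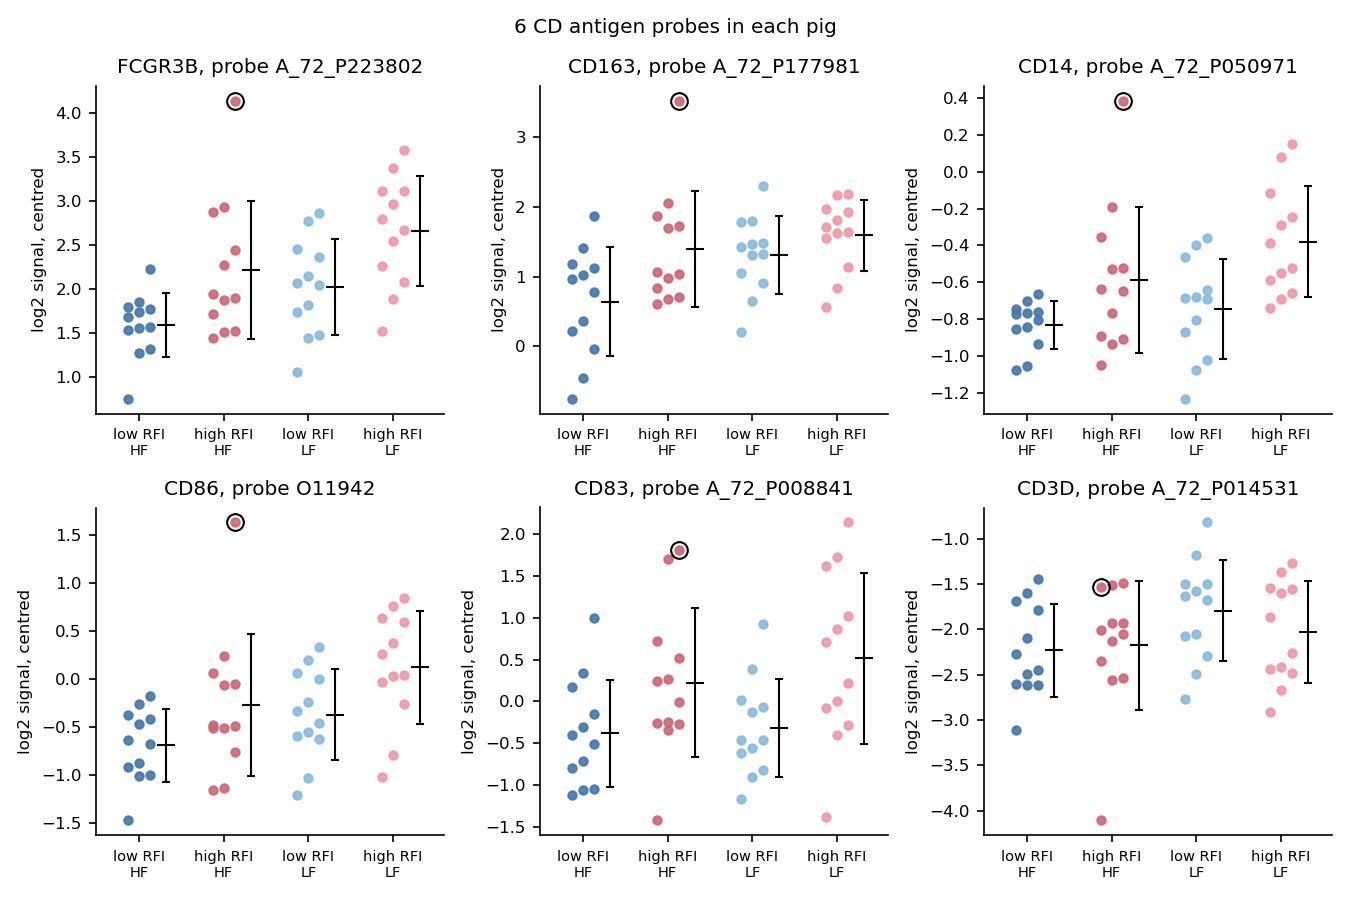
Centred log2 signal in each pig for 1 probe each of FCGR3B, CD163, CD14, CD86, CD83 and CD3D, by line and diet, with the mean and SD of the 12 pigs as a bar. The circled pig is high RFI pig 6 on the HF diet, which is at 4.13 for FCGR3B and 3.52 for CD163.

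Markers of other cells were set beside these results. Of the macrophage markers, 6 of 10 probes, or 60%, were called higher, against 6.57% of all tested probes, and none was called lower. The called probes were of AIF1, C1QA (adjusted p = 0.04998 in limma), C1QB and CSF1R. MRC1 was called by neither of its probes (0.15 and 0.35). Another probe of C1QA, at 0.31, and another of C1QB, at -0.03, were not called either. The summed level of the macrophage markers ranged from 2.87 to 4.17 in low RFI pigs and from 3.31 to 5.25 in high RFI pigs fed the HF diet. On the LF diet it ranged from 3.22 to 4.58 in low RFI pigs and from 3.42 to 4.90 in high RFI pigs. Of 15 probes of general leucocyte markers 4, or 26.7%, were called higher, for TYROBP and ITGB2, and none lower. Most of these 4 were of TYROBP. PTPRC (-0.03 to 0.32), LCP1 (0.07 to 0.48), LAPTM5 (0.39 and 0.48) and CORO1A (-0.10) were not called. Of 62 probes of muscle fibre markers 11, or 17.7%, were called lower, for CKM, MYH2 and TNNT3, against 9.85% of all tested probes called lower. Of 25 adipocyte probes 8, or 32%, all of FABP4, were called higher. No marker counts are given without the pigs that stood apart. The part of these cell types in the CD antigen results was not tested.

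Genes found on leucocytes in general gave 4 of 9 probes called higher, or 44.4% against 6.57% of all tested probes, and none lower. CD97, an adhesion receptor that the current RefSeq annotation calls ADGRE5, was called by both its probes, with differences of 0.21 (A_72_P441694, adjusted p = 0.0195) and 0.56. CD48, a ligand of CD244, and the tetraspanin CD53 were each called by 1 of 2 probes, with 0.48 for both. Without high RFI pig 6 on the HF diet both differed by 0.39 and neither was called (adjusted p = 0.0548 for CD48 and 0.0741 for CD53). The hyaluronan receptor CD44 differed by 0.12 and 0.14, and CD38, an enzyme of NAD metabolism, by -0.03, and neither was called.

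T and NK cell genes gave no probe called higher, against 6.57% of all tested probes. Of 14 probes for 9 genes, 13 were not called, and 1, or 7.14%, was called lower, against 9.85% of all tested probes. That gene was CD244, a receptor of NK cells, with -0.17 (standard error 0.06, adjusted p = 0.0304 in limma). It differed by -0.31 on the HF diet and by -0.04 on the LF diet. Without high RFI pig 6 on the HF diet its line difference was -0.16 and not called (adjusted p = 0.0501). For the T cell receptor subunit CD3D the lowest, median and highest levels on the HF diet were -3.11, -2.37 and -1.45 in low RFI pigs and -4.11, -2.03 and -1.49 in high RFI pigs. The LF diet gave -2.77, -1.66 and -0.82 in low RFI pigs and -2.91, -2.06 and -1.27 in high RFI pigs, and the lines overlapped almost wholly. The difference of CD3D was -0.09, with a 95% interval from -0.42 to 0.24, and that of CD3E was -0.14, with an interval from -0.38 to 0.09. CD247, the zeta chain, differed by -0.05 (interval from -0.31 to 0.22), and CD5, which damps receptor signals, by 0.000126 (interval from -0.09 to 0.09). This CD5 probe was far brighter than that of CD3D, at 3.36 to 4.03 against -4.11 to -0.82 over the pigs. The other CD5 probe lay at -1.93 to -0.62, differed by 0.02 and was not called. Whether the brighter probe reads T cells was not tested. CD4, CD8B and CD27 did not pass the filter, and CD8A, at -0.38 and -0.35 with a pair of probes of the same sequence, was not called.

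B cell genes were few and mostly dim. CD180, a Toll-like receptor homologue of B cells and macrophages, was called higher by both probes (adjusted p = 0.00646 and 0.0164). Its probe A_72_P232472 was above background on 7 of 24 low RFI and 13 of 24 high RFI arrays, and probe O8314 on 5 and 10, so that most low RFI values are bounds and the fitted differences of 1.02 and 0.48 are no measured sizes. CD79B, a subunit of the B cell receptor, was called higher (adjusted p = 0.00741), and stood just inside the filter with 12 arrays, as did CD2. CD79B was not well above background on any of the 12 low RFI pigs fed the HF diet and was on 5 of 12 high RFI pigs, so no size is given. CD180 and CD79B thus passed the filter partly through the line in which they were high. The partner of CD79B, CD79A, stood just outside the filter, with 11 arrays. The probes of CD72, a B cell inhibitory receptor, were called in opposite directions, lower by probe A_72_P139481 (-0.18, standard error 0.05, adjusted p = 0.00928) and higher by probe A_72_P509415 (0.73, standard error 0.22, adjusted p = 0.0180). Of these CD72 probes A_72_P139481 was far brighter, at 3.9 to 4.6 against -5.2 to -1.6 over the pigs. Whether the brighter probe reads B cells was not tested. CD24 differed by 0.30 and was not called.

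Tetraspanins, which organise other proteins in the membrane and are made by muscle and vessel cells too, differed by at most 0.26 apart from CD53. Of their 23 probes 8, or 34.8%, were called higher and 1, or 4.35%, lower, against 6.57% and 9.85% of all tested probes. CD53 counts both here and among the genes found on leucocytes in general. All 8 probes of CD9 differed in the same direction, by 0.14 to 0.23, and 3 were called. CD81 was called higher by 4 of 6 probes, by 0.09 to 0.20, while probe A_72_P496803 differed by -0.15 (adjusted p = 0.0785). Probe A_72_P019811 of CD82 was called lower, by -0.21 (adjusted p = 0.0330), and the other 3 CD82 probes, at 0.03 to 0.11, were not. CD63, at -0.03 and 0.01, was not called, and changed sign for probe A_72_P406253 with quantile normalization and with normexp background correction.

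Of the 25 probes for surface genes of vessels, stroma and muscle, 3 were called higher, or 12% against 6.57% of all tested probes, and none lower. CD36, the fatty acid transporter, and CD164, a sialomucin, were not called by any of their 5 and 6 probes, with differences from -0.17 to 0.03 and from -0.08 to 0.09. CD47, the signal that keeps phagocytes away, differed by -0.05 and was not called. CD34 and CD93 of the endothelium, and the pericyte protein CD248, were not called either. CD58, the ligand of CD2, was called by both its probes, by 0.20 (adjusted p = 0.00493) and 0.22 (adjusted p = 0.00406), and CD99, an adhesion molecule, by 0.27 (adjusted p = 0.00750). NT5E, which makes adenosine outside the cell and is not in this list, was higher by 0.28 (adjusted p = 0.0109 in limma). For NT5E, 22 of 24 high RFI pigs lay above the mean of the low RFI line. None of the 5 probes of the complement regulators CD55 and CD59 was called, although CD59 differed by 0.33 to 0.49.

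The second question was whether the line difference held on each diet and differed between them. On the HF diet 10 of the 122 probes were called for the line, 9 of them higher, against 6.39% of all tested probes called on that diet. They were the 4 of CD40 and 1 each of CD58, CD81, CD79B, CD302, NT5E and, lower, CD244. On the LF diet 5 probes were called, all higher, against 2.47% of all tested probes, and they were the 4 of CD40 and 1 of CD58. Of the 40 probes called over both diets, 29 were called on neither diet alone, and all 40 had the same sign on both. The HF count moved from 10 to 21 without low RFI pig 8 on the HF diet, to 18 without high RFI pig 1 and to 6 without high RFI pig 8 on that diet, and the LF count from 5 to 8 without high RFI pig 9 on the LF diet. No probe was called for the interaction of line and diet with limma, and 2 probes had an unadjusted p under 0.05, or 1.64% against 4.45% of all tested probes.

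**Figure D4:**
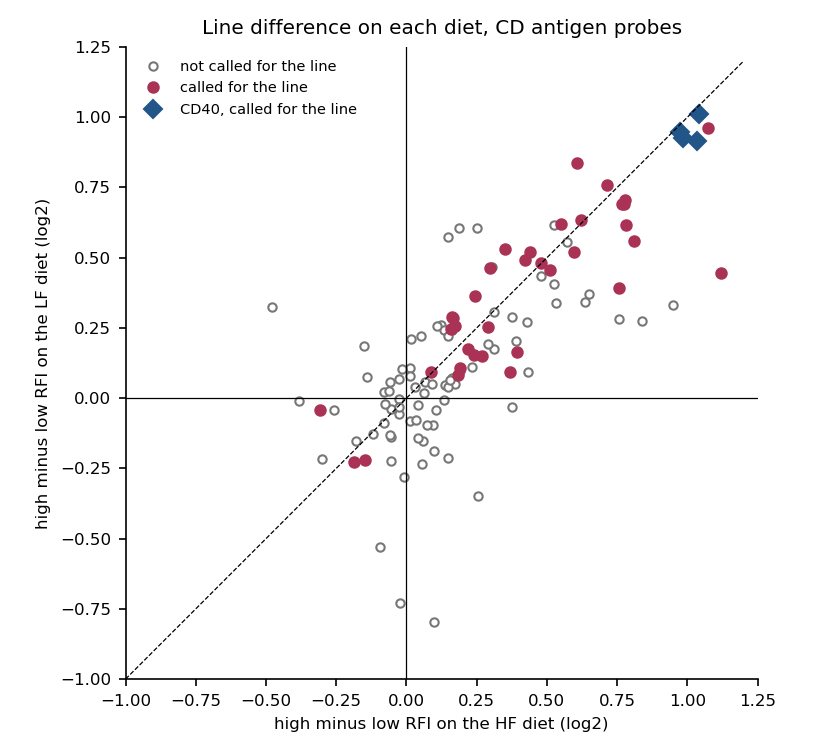
Line difference (log2, high RFI minus low RFI) on the HF diet against that on the LF diet for the 122 CD antigen probes, with the dashed line marking equal differences. The 4 CD40 probes lie near 1 on both axes, and all 40 called probes have the same sign on both diets.

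The third question was the effect of the diet itself. No CD antigen probe was called for the diet with limma, against 0.42% of all tested probes. An unadjusted p under 0.05 was found for 29 of the 122 probes, or 23.8%, and all 29 were lower on the HF diet, whereas 7.12% of all tested probes had such a p and were lower on the HF diet. Over all 122 probes, 100 were lower on the HF diet, with a median of -0.11 against 0.00 over all tested probes. The 29 belonged to 13 genes, among them FCGR3B (4 of 4 probes, -0.49 to -0.44), CD163 (4 of 6), CD86 (3 of 4) and CD53 (both, -0.41 and -0.40). Without high RFI pig 6 fed the HF diet, the 29 became 45, and without low RFI pig 11 fed the HF diet they became 25, all lower on the HF diet. The smallest adjusted p was 0.15. Of the macrophage markers, 9 of 10 probes were lower on the HF diet too, with a median of -0.31, and none was called. Their part in these values was not tested.

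The genes that carry the signal of CD40 inside the cell, or that follow it, were called about as often as all tested probes when both directions were counted together. Of the 24 genes of the list, 17 were tested, by 42 probes, of which 5 were called higher and 2 lower, or 16.7% against 16.4%. By direction, 11.9% were called higher and 4.76% lower, against 6.57% and 9.85% of all tested probes. The median line difference was 0.10, against -0.03 over all tested probes. Those called higher were the kinase IKBKB by 2 of 3 probes (0.31 with probe A_72_P377408, and probe A_72_P232747, which was above background on 17 arrays), the adhesion molecule VCAM1 by 1 of 2 probes (0.35), STAT6 by 1 of 3 probes (0.16) and C4BPA, a complement inhibitor reported to bind CD40, by 1 of 7 probes (0.30, adjusted p = 0.0332). The other 6 probes of C4BPA differed by 0.48 to 0.55 and were not called (adjusted p from 0.0542 to 0.0691). TRAF6, an adaptor of CD40, was lower by both its probes, at -1.08 (standard error 0.19, adjusted p = 8.84e-05) and -0.21 (adjusted p = 0.0370). The ligand CD40LG did not pass the filter on dim probes. None of the 5 probes of NFKBIA, an inhibitor induced by NF-kB, was called, although all were higher, by 0.09 to 0.19.

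CD40 was then compared with the other 50 CD antigen genes, 1 probe each, across the pigs after the group means had been taken off. Of these, 40 correlated positively with CD40, and 18 had an adjusted p under 0.05 over the 50 comparisons, 17 of them positive. The strongest was CD74, with a Pearson r of 0.64 and a Spearman rho of 0.64 (n = 48 pigs, permutation p = 1e-05 for both, the smallest that the permutations can give, adjusted p = 0.0005). It was 0.60 without the 2 pigs farthest from the median of CD40. CD180, which was above background on 20 arrays with this probe, followed with r = 0.55 and rho = 0.48 (permutation p = 0.00023 and 0.0014, adjusted p = 0.00164 and 0.0100), and 0.52 without those 2 pigs. CD48 had r = 0.55 and rho = 0.50 (permutation p = 5e-05 and 0.00066, adjusted p = 0.000875 and 0.00550), and 0.54 without them. High RFI pig 6 fed the HF diet was not among those 2 pigs, and no correlation is given without it. Its CD48 level was 2.10, against 0.63 for the next pig of its group. Its CD180 level was -1.53 against -3.41, and its CD74 level was 2.12 against 1.95. How far the correlations rest on that pig was not tested. The relation weakened when the mean of each group on each slide was taken off in place of the group mean, to r = 0.38 for CD74, 0.26 for CD180 and 0.34 for CD48. Permuted within group and slide, where each cell held 2 pigs, none of the 50 had a p under 0.05, adjusted or not, so none of the correlations was called within slides, and 16 of the 17 positive ones were still above 0.

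**Figure D5:**
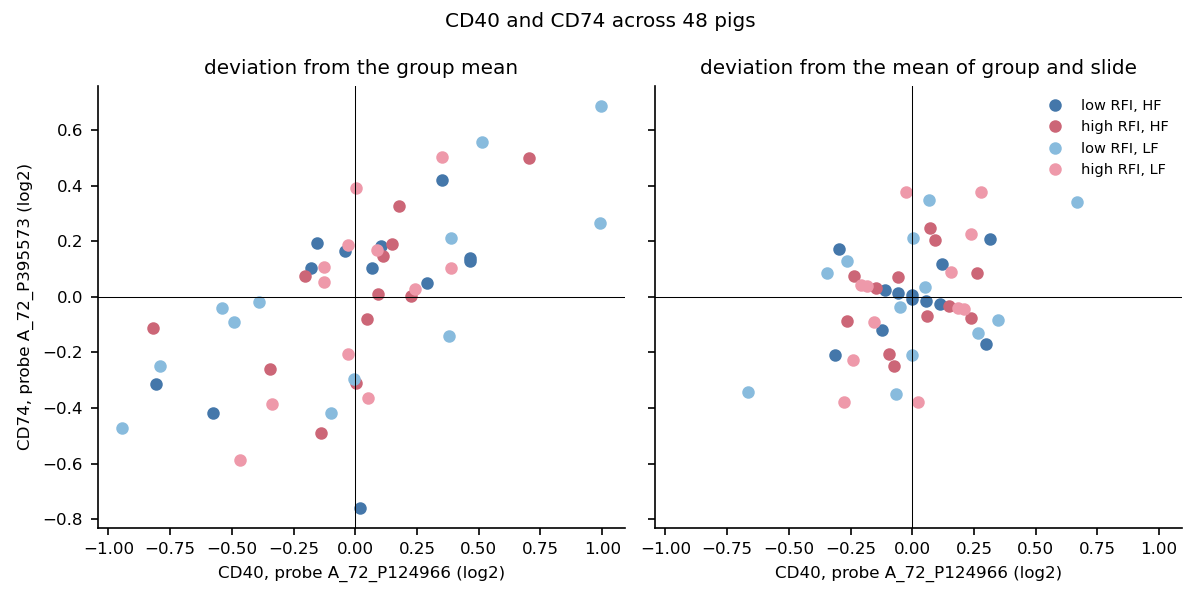
Deviation of CD74 against that of CD40 in the 48 pigs (log2), from the mean of the group on the left and from the mean of the group on the slide on the right. The correlation is 0.64 on the left and 0.38 on the right.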

How the data were processed

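The authors deposited 1 scanner file of spot intensity per one-colour array, written by Agilent Feature Extraction. They also deposited log2 values, found here to be the median intensity of each spot after log2 and less the array's median, for 34472 probes. R 2.10.0 is named in the submitters' processing notes. Control and outlier spots were left out here, and no outlier spot fell in the 122 probes. Spots of a probe were averaged. Processed signals were taken to log2 and each array's mean was subtracted, over the 42125 probes that 12 or more arrays showed well above background. Groups of 12 pigs were compared with limma 3.58.1 (R 4.3.3) on the 4 group means, adjusting by Benjamini-Hochberg over all tested probes and a threshold of 0.05, and correlations with 100000 two-sided permutations within groups. Summaries were made in Python 3.11.15 with matplotlib 3.10.9, scipy 1.17.1, pandas 2.3.3 and numpy 2.4.6. The summed level of a marker list is the log2 of the sum of its probes' unlogged centred values. The number of arrays limits the precision.

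The members and lists were chosen with earlier results of these data known. Genes were named by rule: every CD40 probe, every called probe, the 3 brightest genes of each role list and the 3 genes most correlated with CD40. Other genes given with values were chosen after their values were seen. A gene with several probes was represented by its brightest. CD44, CD53, CD83 and CD86 are each in a pair of role lists. The T cell, B cell, endothelium, fibroblast and blood markers gave no call higher except 2 of 16 probes of endothelium (TEK) and 2 of 22 of fibroblasts (COL1A1), and BLK was lower. On simulated data for the line contrast (41960 probes, 200 changed), limma recovered 76% of differences of 0.5 and 96% of differences of 1, with 5.50% false calls. The simulated probes varied independently, and far fewer were changed than the 16.4% called in the data, so these rates need not hold there. Gene symbols are those of the array files, which name no genome build, so no coordinates are given, and 59 of the 122 probes had an accession in the RefSeq table.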

Additional observations from a re-analysis of the deposited data

How the results depend on the processing

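The count of CD antigen probes called for the line was between 37 and 47 with 75th percentile scaling, quantile normalization, normexp background correction (offset 50), a filter of 36 arrays, outlier spots kept, slide as a block, scan day as a covariate, the deposited table and the variance analysis of the methods, against 40. Since the filter of 36 arrays and the deposited table hold fewer of the 122 probes, their counts of 42 and 37 are 39.3% and 37.8% of the probes they hold, against 32.8%. With no filter on dim probes, which tests 60305 probes in place of 42125, it was 23, none of them lower, and on the HF diet 6 in place of 10. Leaving out each pig in turn, an alternative chosen after seeing the data, gave 29 to 51 probes for the line, 6 to 21 on the HF diet, 4 to 8 on the LF diet, 0 for the diet and 0 for the interaction, and a CD40 difference of 0.93 to 1.02. The 3 probes called lower became 1 without high RFI pig 6 fed the HF diet and 5 without high RFI pig 9 fed the LF diet. Leaving out high RFI pig 6 and low RFI pig 11 fed the HF diet together, also chosen after seeing the data, gave 26 for the line and 5 on the HF diet. Within slides, the CD40 difference was 1.46 on slide 2 and 0.49 on slide 5. The correlations with CD40 within group and slide were 0.38 for CD74, 0.26 for CD180 and 0.34 for CD48. In all these the cause was not tested.

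Besides the brightest CD40 probe, 39 probes were called, and 18 of them kept their call with every alternative that held them, 20 lost it with 1 or 2 and 1, of CD81, with more. None of them changed sign. The loss came mostly from no filter on dim probes (17) and normexp (7). Among genes not called, CD5 was at -0.00601 with 75th percentile scaling and -7.37e-05 with outlier spots kept, CD63 at 0.0509 with quantile normalization and 0.00793 with normexp, and CD36 at 0.00415 with normexp. No paired analysis was possible because the labels number no pigs across groups.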

Other observations

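CD59 protects cells from complement. With probe A_72_P443945 the 48 pigs fell on either side of a gap of 0.90 on the log2 scale, with 29 pigs between 3.17 and 3.67 and 19 between 4.57 and 5.20. The higher set held 3 of 12 low RFI pigs fed the HF diet, 7 of 12 high RFI pigs fed the HF diet, 3 of 12 low RFI pigs fed the LF diet and 6 of 12 high RFI pigs fed the LF diet. The other probes of CD59 had gaps of 0.94 (A_72_P305914) and 0.82 (A_72_P146701), which parted the same 19 pigs from the same 29. With 1 probe for each of the 51 genes, and leaving out the 5 outermost gaps at either end, the next widest gap was 0.40, for CD70. The sets were seen in the values and do not come from the labels, and no test was made of them.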
